A study of Mus musculus with 6 samples.

Results

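Stc1 and Stc2 encode the stanniocalcins, secreted glycoproteins that act on the cells around their source. They were chosen by their array signals, with the 8-month against 3-month difference of Stc1 already known, and every probe set whose single annotated gene was Stc1 or Stc2 was taken: 2 for Stc1 and 3 for Stc2, 5 of 45037 on the array. The 2 genes stand among 18193 named ones. Because the age difference was known when the genes were picked, their own levels and differences are a description and carry no test.

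Stanniocalcin was first described in bony fish as a hormone that restrains calcium uptake. In mammals both proteins are made in many tissues and act locally. STC2, and also STC1, bind and inhibit PAPP-A, a protease that cleaves IGFBP-4 and thereby frees insulin-like growth factor (IGF). Hypoxia induces both genes through HIF-1, and endoplasmic reticulum stress induces Stc2 through the kinase PERK and the factor ATF4. In rat models of retinal degeneration, STC1 protein injected into the eye slowed the loss of photoreceptors.

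Messenger RNA was measured on Affymetrix mouse arrays in whole DBA/2J retinas from female mice, with 1 retina per array and 3 animals per age. The 8-month group had elevated intraocular pressure, with final readings of 25.3, 26.5 and 30.4 mmHg in retinas 1, 2 and 3, the order in which values are given throughout. The 3-month group had normal pressure, with 19.1, 15.3 and 18.2 mmHg. Both ages share the strain's mutations in Tyrp1 and Gpnmb, which cause the iris disease that precedes its glaucoma. Since pressure guided the choice of animals, age and pressure cannot be told apart. All 3-month retinas and 8-month retina 1 were left eyes, and 8-month retinas 2 and 3 were right eyes. A retina is a mixture of cells, so fewer cells of a type and less RNA per cell cannot be told apart.

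The retinal origin was plain from the rod markers, of which 5 were measured, with a mean log2 signal from 12.40 to 12.53 at 8 months and from 12.53 to 12.71 at 3 months. Lens crystallins stood far above the other retinas in 8-month retina 1, with a mean of 9.01 over 7 genes, and in 3-month retina 3, with 10.26. In the other retinas the mean was 4.22 and 4.62 at 8 months and 6.01 and 4.64 at 3 months. Each stanniocalcin difference is therefore also given without those 2 retinas, an alternative added once the data had been seen. A probe set entered the tests if at least 3 of its 6 values reached 4 on the log2 scale. Of the 5 stanniocalcin probe sets, 2 met this, 1 for each gene.

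Stc1 read higher in every 8-month retina than in any 3-month retina. Its brighter probe set, 1450448_at, gave log2 signals of 4.44, 4.65 and 4.25 in the 8-month retinas, against 3.59, 3.65 and 3.61 in the 3-month retinas. The lowest older retina lay 0.60 above the highest younger one. The mean was 4.45 ± 0.20 in the older group, against 3.62 ± 0.03 in the younger (SD, n = 3 each), a log2 difference of 0.83 or 1.78-fold. The older retinas were spread over 0.40 log2 units, while the younger ones lay within 0.06.

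This Stc1 difference ranked 42 from the top among the rises of the 20973 probe sets tested. The gene was chosen with that difference known, so the rank is a description and no support for it. Ages that did not overlap were common on these arrays, in 21.8% of probe sets, with 6.89% wholly higher at 8 months. Just 1 probe set of 20973, or 0.00477%, passed limma's test after Benjamini-Hochberg adjustment, and it belonged to Glb1l3, not Stc1. A difference of 1 log2 unit or more, which Stc1 did not reach, was found in 0.143%.

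The Stc1 signal was weak, and it passed the filter only through the older retinas, as all 3 younger values were below 4. Such a probe set had to be higher at 8 months to be kept. It was 1 of 27 kept probe sets with every 8-month value at or above 4 and every 3-month value below it, while 20 had the opposite arrangement. GCRMA, the method that made these values, presses weak signals toward a floor, so the size of a difference between such low values is uncertain.

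The second Stc1 probe set, 1421984_at, read the same at both ages. It gave 2.27 in 5 of the 6 retinas and 2.26 in the other, a range of 0.0046 log2 units, and 3.16% of all probe sets were dimmer. It is annotated to the same transcript record as the brighter one. Among 3788 pairs of a gene and a record with more than 1 probe set, 29.6% likewise had some kept and some not. The Stc1 difference therefore rests on 1 probe set.

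Stc2 showed no separation of the ages. Its brightest probe set, 1419503_at, read 4.34, 4.34 and 4.50 in the 8-month retinas, against 4.55, 4.47 and 4.19 in the 3-month retinas. The older values lay inside the span of the younger ones. The mean was 4.39 ± 0.10 in the older group, against 4.40 ± 0.19 in the younger (SD, n = 3 each), a log2 difference of -0.0093. By the size of its difference it ranked 20106 of 20973.

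The remaining Stc2 probe sets lay near the floor of the array. Probe set 1449484_at read 2.48 to 2.49 in all 6 retinas. Probe set 1445186_at, annotated to another record, read 2.38, 2.47 and 2.35 at 8 months and 2.26, 2.35 and 2.36 at 3 months, with overlapping ages. Of the 45037 probe sets, 20.9% and 13.9% were dimmer than these.

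**Figure D1:**
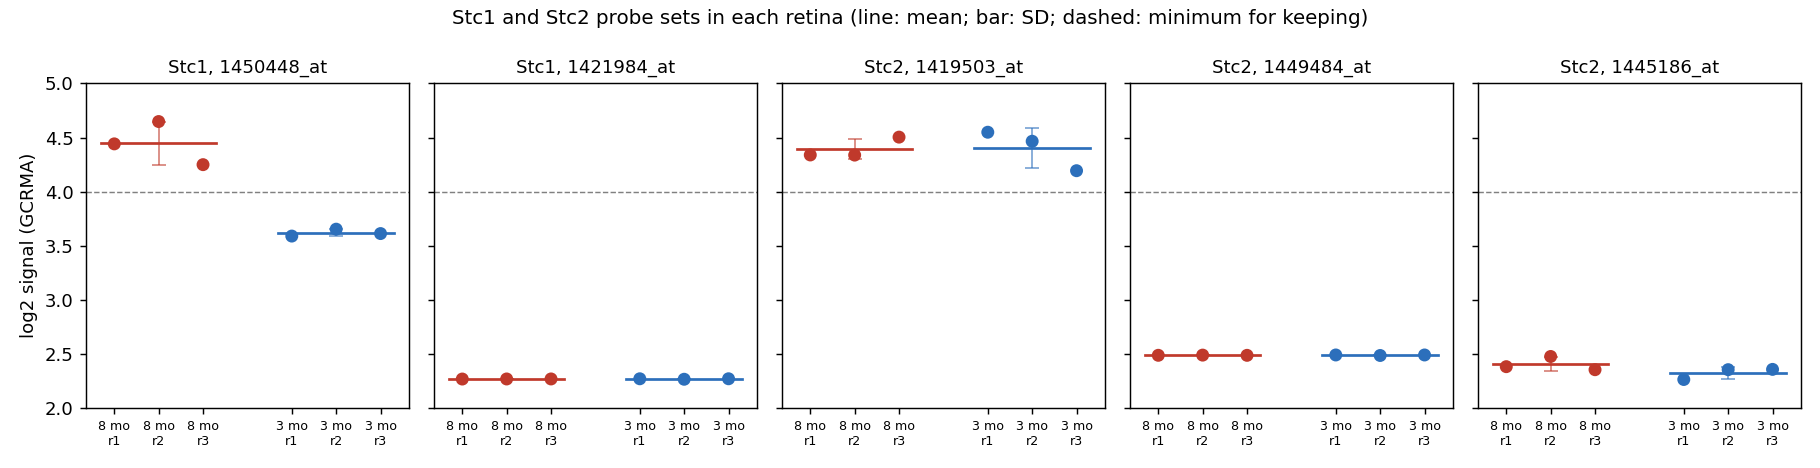
Log2 signal of the 5 Stc1 and Stc2 probe sets in each retina, 8 months in red and 3 months in blue, with the mean as a line, the SD as a bar and the filter minimum of 4 dashed. The Stc1 probe set 1450448_at lies at 4.25 to 4.65 in the older retinas, above the line, and at 3.59 to 3.65 in the younger ones, below it, while the other 4 probe sets overlap between ages.

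Set against pressure, the older retinas had Stc1 of 4.44, 4.65 and 4.25 at 25.3, 26.5 and 30.4 mmHg, so the lowest Stc1 was at the highest pressure and the highest at the middle one. The younger retinas had 3.65, 3.61 and 3.59 at 15.3, 18.2 and 19.1 mmHg, the reverse of the order of pressure, within 0.06 log2 units. With 3 retinas per age no relation can be tested.

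The Stc1 difference ranged from 0.73 to 0.93 under 12 other scalings, covariates and subsets of retinas. As its ages do not overlap, the subsets and covariates could not change its sign, so just the other scalings could. Without both crystallin-rich retinas the Stc1 difference was 0.83. The Stc2 difference ranged from -0.11 to 0.06, took either sign, and was -0.087 without those retinas.

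The means of several marker groups also separated the ages, and the part of these groups in the Stc1 difference was not tested. Microglial markers, 4 of 4 measured, had a mean log2 signal of 6.62 to 6.76 at 8 months and 6.12 to 6.29 at 3 months. Ctss, Tyrobp and C1qb each separated the ages, while Csf1r overlapped, with a difference of 0.085. Astrocyte markers, 2 of 3 measured, had 4.56 to 5.02 at 8 months and 4.22 to 4.46 at 3 months. Gfap carried that separation, with 4.87, 5.83 and 5.75 in the older retinas and 4.25, 4.72 and 4.27 in the younger ones, while S100b overlapped. Müller glia markers, 4 of 4, had 10.91 to 10.98 at 8 months and 10.69 to 10.88 at 3 months. Glul and Aqp4 separated the ages, while Rlbp1 and Slc1a3 overlapped. Lower at 8 months were endothelial and pericyte markers, 4 of 6 measured, with 5.63 to 5.67 at 8 months and 5.79 to 6.06 at 3 months. The endothelial markers Pecam1 and Cdh5 were below the filter. Cldn5 alone separated the ages by itself, while Tek, Rgs5 and Pdgfrb overlapped. Ganglion cell markers, 5 of 5, had 8.66 to 8.68 at 8 months and 8.73 to 8.87 at 3 months, and the rod markers given above did not overlap either. Of the ganglion cell genes just Pou4f1 separated the ages by itself, with 9.62, 9.68 and 9.52 at 8 months, against 9.90, 9.95 and 9.73 at 3 months. For comparison with all these markers, 23.0% of all genes had ages that did not overlap, 6.05% higher and 16.9% lower at 8 months. None of 3 red blood cell and none of 4 skeletal muscle markers reached the filter. The Gapdh control, in which the 3' minus 5' log2 signal reads RNA quality, gave 0.755 to 0.811 at 8 months and 0.707 to 0.751 at 3 months, while the actin control overlapped.

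Pigment epithelium markers, which tell how much of the layer behind the retina came along, followed the 2 genes differently. Their mean over 4 genes was 6.00, 6.50 and 4.95 in the 8-month retinas and 4.36, 5.54 and 6.61 in the 3-month retinas. The ages overlapped. Within the older retinas Stc1 had the order of the marker mean, at 4.25, 4.44 and 4.65 where the mean read 4.95, 6.00 and 6.50. Rpe65, Ttr and Rgr each had that order, while Best1 read 3.76, 4.41 and 4.30 and was lowest in 8-month retina 1. Within the younger retinas Stc1 stayed between 3.59 and 3.65 over a wider span of the mean. The part of the markers in the spread of the older Stc1 values was not tested. For Stc2 the order of the 6 retinas reversed that of the marker mean, with 8-month retinas 1 and 2 nearly tied at 4.3386 and 4.3373. Stc2 ran from 4.55 in 3-month retina 1, where the mean was lowest, to 4.19 in 3-month retina 3, where the mean was highest. Among the single markers Ttr alone had that exact order. Rpe65 and Rgr were highest in 8-month retina 2, at 5.43 and 6.54, and Best1 was lowest in 8-month retina 1. The comparison of Stc2 with these markers was picked after the values were seen. Stc2 spans just 0.36 log2 units, and what the relation rests on was not tested.

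**Figure D2:**
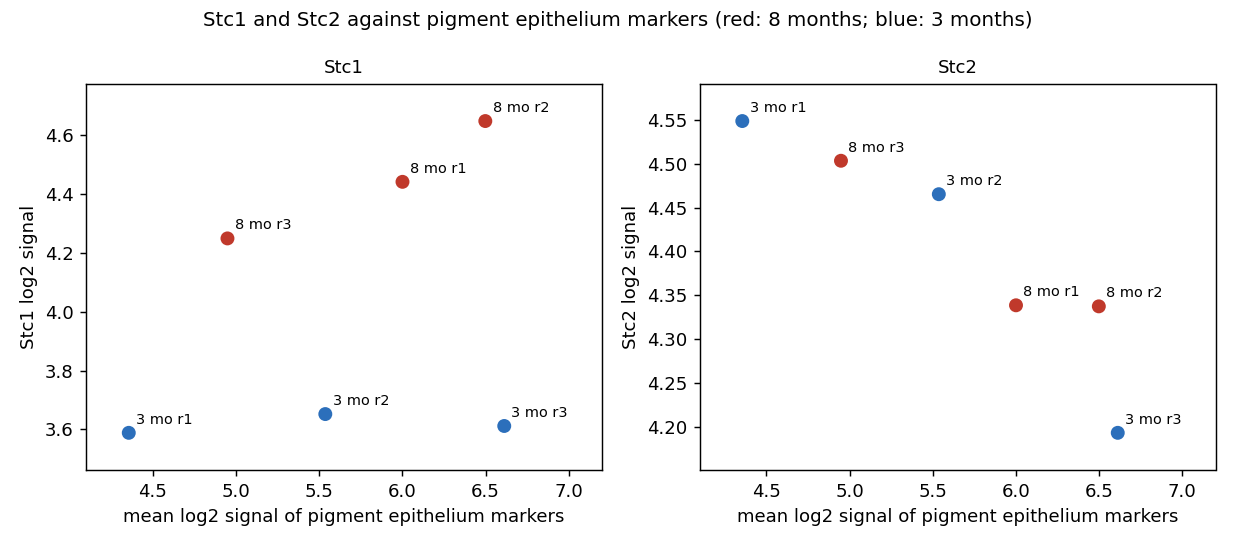
Log2 signal of Stc1 (left) and Stc2 (right) against the mean log2 signal of 4 pigment epithelium markers, 1 point per retina, 8 months in red and 3 months in blue. The Stc1 points form an upper group that ascends with the markers from 4.25 to 4.65 and a lower, nearly level one at 3.59 to 3.65, while the Stc2 points descend from 4.55 to 4.19 as the markers increase.

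The genes whose pattern was most like each stanniocalcin were found by Pearson's r of log2 signal over the 6 retinas, among 380 genes with a range of at least 1 log2 unit. These are descriptions from 6 arrays, without p. For Stc1 the 5 highest were Glb1l3, C1qb, Csrp3, Fbln1 and Lyz1, with r of 0.93, 0.92, 0.91, 0.90 and 0.90. They encode a beta-galactosidase family member, a complement C1q chain, a muscle LIM protein, the matrix protein fibulin-1 and a lysozyme. All 5 had every older retina above every younger one, as Stc1 does, which by itself makes r high.

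Fbln1 shared the order of the older retinas too. It read 5.72, 5.98 and 5.58 in the 8-month retinas, against 5.13, 5.47 and 4.96 in the 3-month retinas. C1qb read 7.65, 8.37 and 8.14 at 8 months, against 7.06, 6.99 and 6.98 at 3 months, with retina 2 highest as for Stc1. Glb1l3 and Csrp3 had the reverse of the Stc1 order in the older retinas, at 7.60, 7.57 and 7.91 for Glb1l3 and 7.03, 6.81 and 7.08 for Csrp3. The highest older value of Lyz1, 6.11, was in 8-month retina 1. Most opposite to Stc1 were Gng4, a G protein gamma subunit gene, Igsf9, an immunoglobulin superfamily gene, and the growth factor gene Bmp5, each with r of -0.94. Igsf9 read 4.71, 4.06 and 5.02 in the 8-month retinas, against 5.42, 5.44 and 5.42 in the 3-month retinas.

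**Figure D3:**
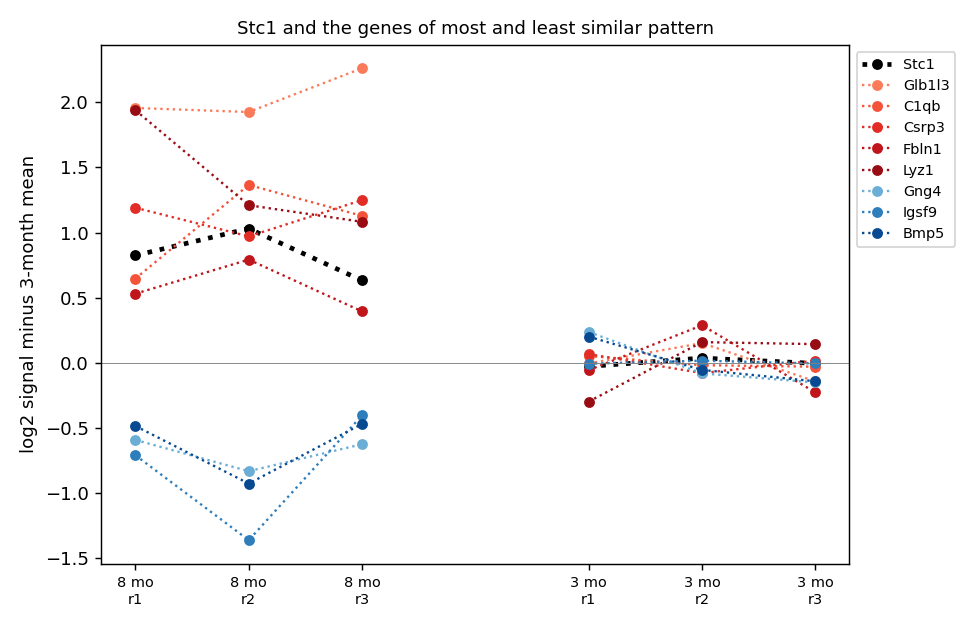
Log2 signal minus the 3-month mean in each retina for Stc1 (black), the 5 genes of highest r (reds) and the 3 of lowest r (blues), with dotted lines that only join the values of a gene within an age. Stc1 lies between 0.63 and 1.03 above its 3-month mean in the older retinas, and Gng4, Igsf9 and Bmp5 lie below theirs.

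With the mean of each age removed, the likeness of Stc1 changed, as it then rested almost wholly on the 3 older retinas. Fam89a had r of 0.997, Cd93, an endothelial and myeloid receptor gene, 0.86, and the IGF binding protein gene Igfbp1 0.86. Fabp7, a fatty acid binding protein gene of glia, had 0.80 and the chemokine gene Cxcl13 0.80. Slc16a3, a lactate transporter gene, Igsf9 and the cholesterol hydroxylase gene Ch25h had r of -0.99, -0.97 and -0.96. Of 380 genes, 1 exceeded r of 0.9 and 6 lay under -0.9, against 6 and 10 before the age means were removed.

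For Stc2 the genes of highest r were Gm527, Hif1an, Chtf8, Plppr1 and Chst9, from 0.95 to 0.86. Hif1an encodes the asparagine hydroxylase that inhibits HIF. It read 5.92, 5.99 and 6.30 at 8 months and 6.47, 6.60 and 5.49 at 3 months, so that it was lowest in the same retina as Stc2. The lowest r belonged to the transporter gene Slc16a9 at -0.96, the transthyretin gene Ttr at -0.95 and the spindle gene Spag5 at -0.92. Ttr, 1 of the pigment epithelium markers above, read 9.30, 9.61 and 7.61 at 8 months and 7.03, 8.85 and 10.40 at 3 months. With age means removed, Gm527, Chtf8 and Hif1an were again among the 5 highest, joined by Pdgfc and Oas1b, and Slc16a9 was again lowest, followed by Ezr and Smim31. Over the 4 retinas left without the crystallin-rich ones, 4 of these r values were clearly smaller in size, at 0.76 for Hif1an, 0.55 for Plppr1, 0.34 for Chst9 and -0.70 for Spag5. The stanniocalcins did not follow each other, with r of -0.14 over the 6 retinas and -0.40 with age means removed.

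Genes tied to stanniocalcin action or induction were then examined in 6 lists, which held 97 genes, 72 of them measured. None of the 72 passed limma's test over all probe sets, where 0.00891% of genes passed. Before adjustment, 9 had a limma p under 0.05, 5 higher and 4 lower at 8 months, against 15.1% of all genes, 3.58% higher and 11.5% lower. The ages did not overlap in 15 of the 72, 6 higher and 9 lower, against 23.0% of all genes, 6.05% higher and 16.9% lower. The median log2 difference was -0.023, against -0.058 over all 11219 genes. In mean, 31 of the 72 were higher at 8 months, against 36.5% of all genes.

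In the IGF and PAPP-A axis, 12 of 17 genes were measured and 0 passed. The median difference was -0.063, with 4 genes higher and 8 lower. An unadjusted limma p under 0.05 was found for 1 higher and 2 lower genes, against 3.58% and 11.5% of all genes. Those 3, Igfbp4, Igf2 and Igfbp1, were also the genes whose ages did not overlap, against 23.0% of all genes.

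Igfbp4 encodes the binding protein that PAPP-A cleaves. Its brightest probe set read 6.05, 5.93 and 6.14 in the 8-month retinas, against 5.30, 5.71 and 5.40 in the 3-month retinas. The groups did not overlap, and the log2 difference was 0.57 ± 0.13 (SE; limma adjusted p = 0.208). The 3 further Igfbp4 probe sets differed by 0.14, 0.10 and -0.016, all with overlapping ages.

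Igf2 encodes IGF-II, a ligand of the IGF receptor. It read 6.46, 6.54 and 6.61 at 8 months, against 7.14, 6.86 and 7.04 at 3 months. Every older retina was below every younger one, with a log2 difference of -0.48 ± 0.10 (SE; limma adjusted p = 0.205). Igfbp1, a binding protein that is itself induced by hypoxia and fasting, read 4.29, 4.39 and 3.79 at 8 months, against 4.81, 4.83 and 4.59 at 3 months. Its log2 difference was -0.59 ± 0.17 (SE; limma adjusted p = 0.248), and the lowest value was again in 8-month retina 3, which had the lowest Stc1 of the older retinas.

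The ligand gene Igf1, the receptor gene Igf1r and the protease gene Pappa2, whose product cleaves IGFBP-3 and IGFBP-5, overlapped between ages in their brightest probe sets. Pappa2 read 4.79, 4.76 and 4.75 at 8 months and 4.90, 4.71 and 4.75 at 3 months, a difference of -0.023. A further Igf1 probe set, nearly as bright, read 7.59, 7.38 and 7.43 at 8 months, against 7.24, 7.32 and 7.36 at 3 months, higher in every older retina by a mean of 0.16, and a dimmer one differed by 0.19 with overlap. In the brightest probe sets Igf1 and Igf1r differed by 0.06 and 0.12, and the binding protein genes Igfbp2 and Igfbp5 by -0.12 and -0.047, the value of Igfbp5 taking a positive sign after quantile or cyclic loess scaling. Pappa itself did not reach the filter with any of its 3 probe sets, the highest reading being 3.72. Neither did Igfbp3, which peaked at 3.88. The level of Pappa could therefore not be compared between the ages.

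**Figure D4:**
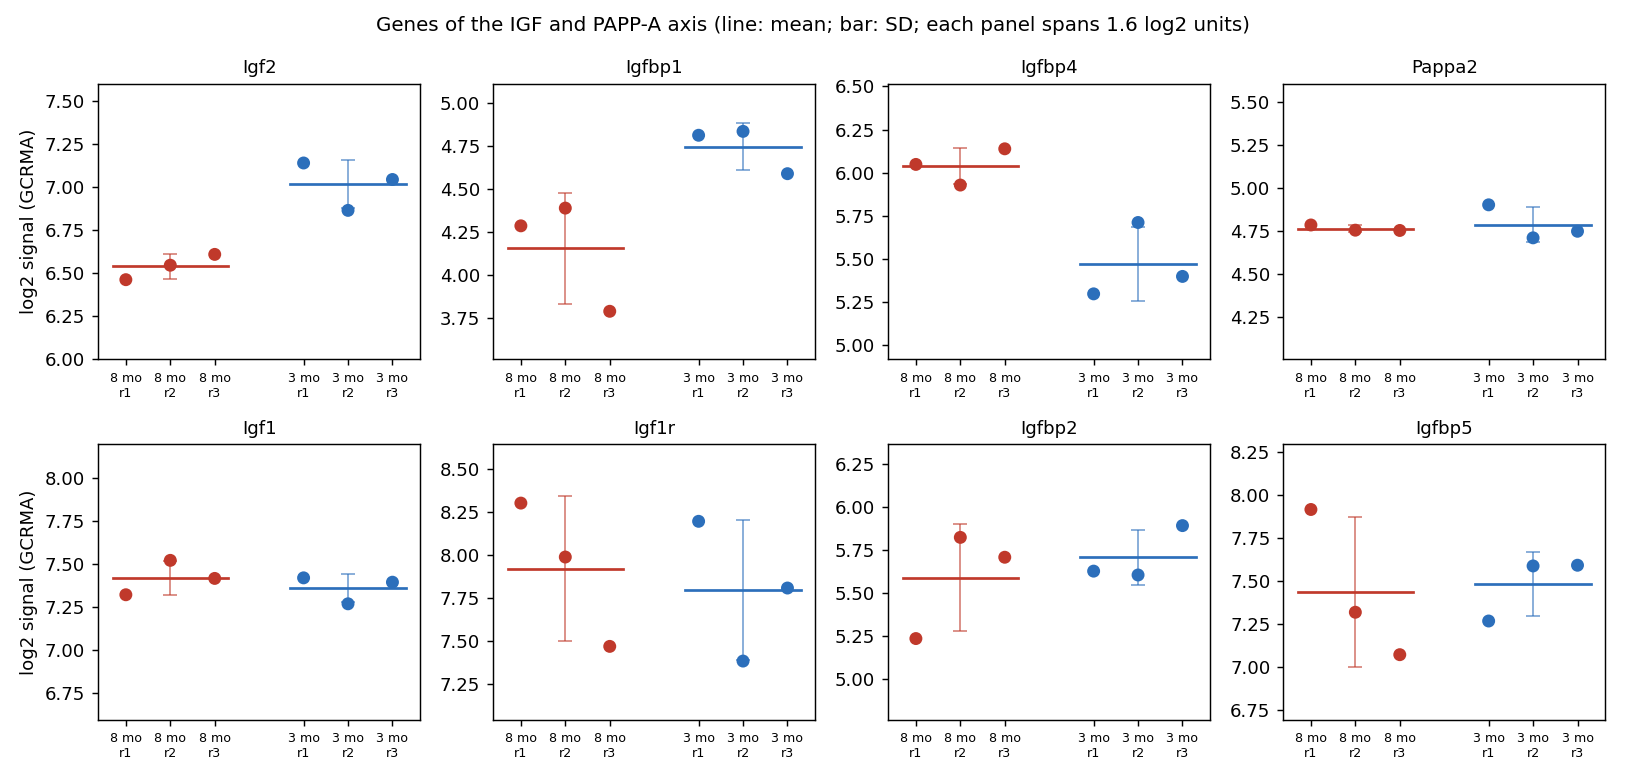
Log2 signal of 8 genes of the IGF and PAPP-A axis in each retina, 8 months in red and 3 months in blue, with mean and SD, each panel spanning 1.6 log2 units. Igfbp4 is higher in all older retinas, at 5.93 to 6.14, Igf2 and Igfbp1 are lower, and the other 5 genes overlap.

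Among 10 measured genes of store-operated calcium entry and calcium handling, of 14 listed, 0 passed. In unadjusted limma p, 0 were under 0.05, against 15.1% of all genes. The median difference was -0.057. Stim1, the calcium sensor of the endoplasmic reticulum to which STC2 binds, read 5.79, 5.75 and 5.89 at 8 months and 5.37, 6.02 and 5.79 at 3 months, with overlapping ages and a difference of 0.08 in a less specific probe set, against 0.21 in its specific one. Orai2, a channel subunit gene, read 4.83, 4.84 and 4.79 at 8 months, against 4.84, 5.03 and 5.15 at 3 months (log2 difference -0.19 ± 0.10, SE; limma adjusted p = 0.405). The smallest limma p in the group was that of the calcium release channel gene Itpr2, with a log2 difference of -0.46 ± 0.20 (SE; limma adjusted p = 0.350). Its probe set was of the less specific kind, with probes that can match other transcripts, and its further 3 probe sets differed by -0.16, 0.22 and 0.22. Saraf, an inhibitor of this entry, differed by -0.28, and by -0.14 without 3-month retina 1. The channel gene Orai1 stayed below the filter, with a highest reading of 3.96.

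Phosphate transport is the other mineral pathway linked to STC1. Only 3 of 9 listed genes were measured and 0 passed by limma, with 0 under 0.05 in unadjusted p, against 15.1% of all genes. The sodium-phosphate cotransporter genes Slc20a1 and Slc20a2 differed by -0.037 and 0.24, and the phosphate exporter gene Xpr1 by -0.015, with Slc20a1 and Xpr1 taking a positive sign after quantile or cyclic loess scaling. A further Slc20a2 probe set differed by -0.31, opposite in sign. The kidney-type cotransporter genes Slc34a1, Slc34a2 and Slc34a3 read no higher than 2.65, 2.56 and 3.23 in any retina.

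In the list of mitochondrial uncoupling carriers, heme oxygenases and mitochondrial protectors, 5 of 9 genes were measured and 0 passed. An unadjusted limma p under 0.05 was found for 1 lower gene, where 11.5% of all genes were lower at that threshold. That gene was Sirt3, a mitochondrial deacetylase. It read 6.73, 6.87 and 6.83 at 8 months, against 7.24, 7.17 and 7.09 at 3 months, without overlap (log2 difference -0.36 ± 0.08, SE; limma adjusted p = 0.218). The superoxide dismutase gene Sod2 and the carrier gene Slc25a27 differed by 0.18 and 0.19 in their brightest probe sets, with overlapping ages. Without 3-month retina 3 these differences were 0.038 for Sod2 and 0.075 for Slc25a27. Further Sod2 probe sets differed by -0.16, -0.12 and 0.08, and a further Slc25a27 probe set by -0.05, all with overlap. Hmox1, the inducible heme oxygenase whose product binds STC2, averaged 3.69 at 8 months and 3.50 at 3 months, below the filter and not tested.

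Genes of the hypoxia response, which include known inducers and companions of Stc1, were measured for 22 of 24. None passed, and the median difference was 0.019, with 11 genes higher and 11 lower. At an unadjusted limma p under 0.05, 3 were higher and 0 lower, against 3.58% and 11.5% of all genes. Their ages did not overlap in 6, of which 4 were higher, against 23.0% of all genes, 6.05% higher.

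Vegfa, the vascular growth factor gene, read 8.15, 8.10 and 8.65 at 8 months, against 7.76, 8.10 and 7.44 at 3 months. The ages overlapped narrowly, at 8.10, and the log2 difference was 0.53 ± 0.21 (SE; limma adjusted p = 0.312). Its highest value was in 8-month retina 3, where Stc1 was lowest among the older retinas. A further, dimmer Vegfa probe set differed by 0.05. Hif1a, the oxygen-sensitive subunit gene of HIF-1, read 12.65, 12.67 and 12.61 at 8 months, against 12.29, 12.57 and 12.12 at 3 months (log2 difference 0.31 ± 0.12, SE; limma adjusted p = 0.309). Other Hif1a probe sets differed by -0.015 and 0.28, both with overlapping ages. Egln3, a HIF prolyl hydroxylase gene, differed by 0.27 ± 0.11 (SE; limma adjusted p = 0.330), without overlap. Epas1, which encodes HIF-2 alpha, was on the other side in every older retina, with a difference of -0.15 ± 0.08 (SE; limma adjusted p = 0.433).

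The integrated stress and unfolded protein response, through which Stc2 is induced, was measured for 20 of 24 genes. None passed, and the median difference was -0.020. At an unadjusted limma p under 0.05, 1 was higher and 1 lower, against 3.58% and 11.5% of all genes. Eif2ak3, which encodes PERK, read 6.24, 5.86 and 5.89 at 8 months, against 6.34, 6.38 and 6.30 at 3 months (log2 difference -0.34 ± 0.12, SE; limma adjusted p = 0.285). The Eif2ak3 difference was -0.095 once eye side was a covariate. Atf4, the factor downstream of PERK, differed by -0.10 in its brightest probe set, with the older retinas lower, and by 0.11 in its less specific one. Its target genes Ddit3 and Trib3 differed by -0.11 and -0.19, Trib3 in a less specific probe set. The co-chaperone gene Dnajb9 read 8.91, 8.96 and 8.85 at 8 months, against 8.66, 8.76 and 8.51 at 3 months (log2 difference 0.26 ± 0.09, SE; limma adjusted p = 0.289). Eif2ak3, Atf4 and Trib3 were lower in every older retina in their brightest probe set, while Ddit3 overlapped between ages. In the whole list the ages did not overlap in 4 of 20 genes, 1 higher and 3 lower. Over all genes this was so in 23.0%, 6.05% higher and 16.9% lower.

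**Figure D5:**
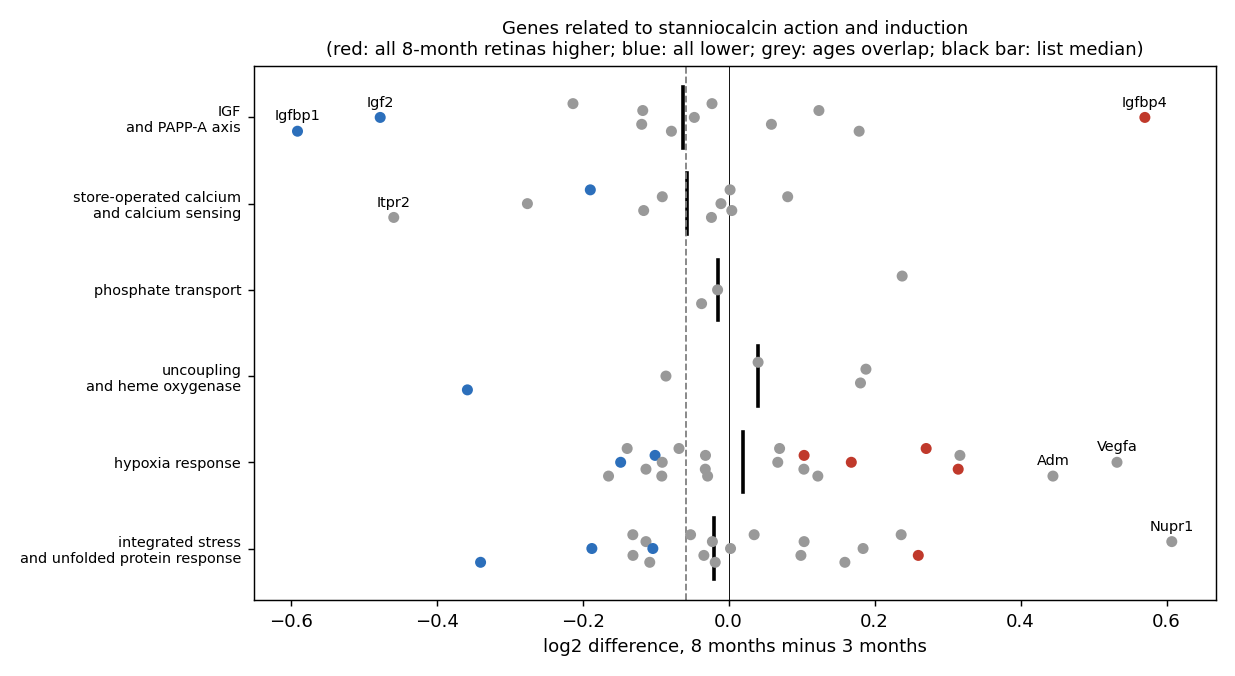
Log2 difference, 8 months minus 3 months, of the 72 measured genes in 6 lists, 1 point per gene, red where all older retinas were higher, blue where all were lower and grey where the ages overlapped. Black bars mark list medians, which lie between -0.063 and 0.040, and the dashed line marks the median of all genes, -0.058.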

How the data were processed

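The deposited values are log2 signals per probe set, which the authors made with GCRMA (version 1.1.0, under R version 1.9.0), according to the submitters' processing notes. The sources used here do not give its options, scan times or detection calls. Of 45101 probe sets, 64 Affymetrix controls were left out. Of the rest, 34945 had 1 gene in the platform annotation, 932 several and 9160 none listed. A probe set was kept if at least 3 of its 6 values reached 4, which kept 20973. Each of 11219 genes was read from its brightest kept probe set.

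The age comparison used limma 3.58.1 under R 4.3.3 (lmFit, eBayes), two-sided and without covariates. P-values were adjusted by Benjamini-Hochberg across the kept probe sets, with a threshold of 0.05. The model was tested on simulated data. The number of arrays limits the precision. The members, lists and named-gene rule were chosen with earlier results of these data known. Named were all Stc1 and Stc2 probe sets, the 3 members of smallest p per list, any member past the threshold, a fixed set of pathway genes, and the 5 highest and 3 lowest r. Of 97 listed symbols, 94 were matched and the other 3 were not analysed here. Alternatives were other scalings, filters, a trended variance, left-out retinas, eye side, a replicate block and other probe set choices.

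Animals differ between ages, so shared replicate numbers do not pair the retinas.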

Additional observations from a re-analysis of the deposited data

How the results depend on the processing

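Under the 12 alternatives that apply to them, the Stc1 difference of 0.83 ranged from 0.73 to 0.93, and the Stc2 difference from -0.11 to 0.06. Both stayed within 1 SD of their value. For Stc1 the left-out retinas, eye side and the replicate block could not change the sign, as its ages do not overlap. Of the 6 lists, 0 members passed under any of the 17 alternatives, 1 of them chosen after seeing the data. The count of probe sets past the threshold, 1, became 2 after quantile normalization, cyclic loess or a filter at 6. It was 0 with eye side as a covariate, with no filter, with any 1 retina left out, and without both crystallin-rich retinas. The replicate block also gave 0, and the correlations of same-numbered deviations, -0.14, 0.06 and -0.28, show no pairing. Of 448 values of named genes under these settings, 28 changed sign, the cause not tested. The 448 include values under the replicate block and the trended variance, which could not change a difference. Differences of Igfbp5, Slc20a1 and Xpr1 became 0.016, 0.013 and 0.011 after quantile normalization and 0.022, 0.023 and 0.029 after cyclic loess. Leaving out 1 retina gave Igfbp5 from -0.29 to 0.13, Igf1r from -0.082 to 0.35, Igfbp2 from -0.24 to 0.058, Xpr1 from -0.058 to 0.041, Pappa2 from -0.061 to 0.035 and Stim1 from -0.096 to 0.23. Without both crystallin-rich retinas Igf1r was -0.061, Igfbp2 0.15, Xpr1 0.0020 and Sod2 -0.057. With eye side as a covariate, where 8-month retina 1 alone stood for the older age, Igf1 was -0.039 and Igfbp5 0.43. Without less specific probe sets Igfbp5 was 0.068 and Itpr2 0.22, and with the probe set of smallest p Igfbp5 was 0.068, Xpr1 0.49 and Sod2 -0.12. Of 160 recomputed r values, 151 moved by less than 0.1, and the other 9 were all of Stc2. Weak signals, near 4 for Stc1 and Stc2, limit what these arrays can resolve.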

Other observations

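In the examined lists, Igfbp7 and Nupr1 were highest in the crystallin-rich retina of each age, and were picked after their values were seen. Igfbp7, a binding protein gene of the IGF family, read 10.21, 6.75 and 6.36 in the 8-month retinas, against 6.64, 6.69 and 10.62 in the 3-month retinas. Nupr1, a stress-induced nuclear protein gene, read 10.67, 8.36 and 8.20 at 8 months and 7.44, 7.27 and 10.70 at 3 months. In the other retinas Nupr1 was still higher at 8 months, with 8.36 and 8.20, against 7.44 and 7.27 at 3 months. Stc1 was not highest in the crystallin-rich retinas, reading 4.44 in 8-month retina 1 and 3.61 in 3-month retina 3, each the middle value of its age.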
